A study of Mus musculus with 11 samples.

Results

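The regions described here are the 1775 ATAC-seq regions that were lower in 1 mouse embryonic stem cell line, D2-13B6, than in each of 3 other lines. ATAC-seq cuts and tags DNA that is not wrapped in nucleosomes or otherwise covered, so the number of reads over a region measures how accessible it is. Members were chosen from the counts of 11 libraries, as CPM, which scales each count to its library's total. On chromosomes 1 to 19 without 11 and 13, the means of B6, B6-13D2 and D2 had to be at least 1 CPM each and at least 2 times the D2-13B6 mean, and the highest D2-13B6 library had to lie below the lowest of the other 8. The 1775 members were 0.832% of the 213345 regions on those chromosomes and 1.25% of the 142084 with a mean of at least 1 CPM in the other 3 lines, called open regions here. The whole table holds 248336 regions.

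The study compared chromatin accessibility between 2 inbred strains and the reciprocal congenic strains made from them, in which a segment of one strain is carried on the background of the other. B6 is C57BL/6J (cell line B6 5-1, 3 libraries) and D2 is DBA/2J (cell line D2 5-5, 3 libraries). The line QJ 6-1, named B6-13D2 here, has a D2 segment on a B6 background and comes from B6.D2-(rs30079041-rs51756099)/Bakr (2 libraries). D2-13B6 carries a B6 segment on a D2 background and is D2.B6-(rs29224292-rs13469455)/Bakr in the sample labels (cell line XE 2-4, 3 libraries), while the series text gives rs51756099 as the second marker. All lines were untreated beyond a shared medium of serum, LIF, the MEK inhibitor PD0325901 and the GSK3 inhibitor CHIR99021. Each genotype is thus 1 cell line, and its libraries are technical replicates of about 100000 cells. Every SD and p-value below covers the spread between such libraries only, and genotype and cell line cannot be told apart.

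Embryonic stem cells renew themselves through a network of transcription factors, among them OCT4, SOX2, ESRRB and KLF4, which bind many enhancers. LIF acts through STAT3, and inhibition of GSK3 stabilises beta-catenin, the partner of TCF and LEF factors at WNT targets. Transposable elements, which make up much of the intergenic genome, are largely held in heterochromatin in these cells by KRAB zinc finger proteins, TRIM28 and SETDB1, yet some of them are accessible.

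"Closed" is not what the counts show. The D2-13B6 mean of a member was 27.4% to 49.997% of the lowest other line mean, with a median of 46.8% and quartiles of 44.1% and 48.7%. Only 137 members were at or below 40% and 10 were at least 3 times below every other line. No member had 3 counts or fewer in all D2-13B6 libraries, and 662 had a D2-13B6 mean under 1 CPM. The members are therefore called lower in D2-13B6, and whether fewer cells had the region accessible or all cells had it less accessible cannot be told apart in bulk libraries. Over all open regions the median was 91.1%, so the members form the lower edge of one distribution. Of 1867 open regions at or below 50%, 92 were left out because a D2-13B6 library overlapped another line.

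**Figure D1:**
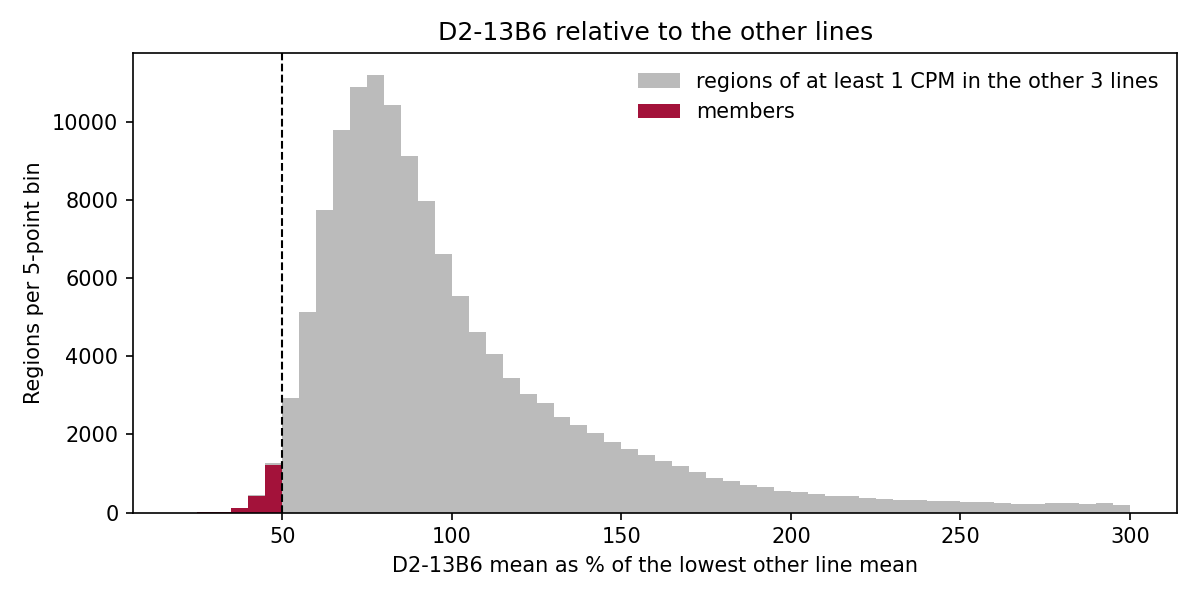
Number of open regions (grey) and members (red) in 5-point bins of the D2-13B6 mean CPM as a percentage of the lowest of the B6, B6-13D2 and D2 means; the dashed line is the rule's limit of 50%, and 9956 regions beyond the axis at 300% are not drawn. The 1775 members are the left edge of a single peak with no gap at the limit.

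Members just inside and just outside that limit had nearly equal values. A region 896 bp from the start of Idh3a, a subunit of mitochondrial isocitrate dehydrogenase, was inside at 49.997% and an intergenic region on chromosome 3 at 49.995%. An intron of Rcl1 was outside at 50.004% and a region on chromosome 8 at 50.005%.

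The sequences below are examples: the central 300 bases of the 4 members with the widest gap between D2-13B6 and the other libraries, and of 1 repeat copy, read from the GRCm38 reference (the B6 genome, plus strand, 5′ to 3′). In the first 4, matches to an OCT4 word (TTTGCAT) or a TCF and LEF word (ATCAAAG), or their reverse complements, are in capitals. The first, with the lowest D2-13B6 share of the 4, is 61.2% repeat-masked and has no match, and most members hold neither word. The last is a repeat copy at a pair of olfactory receptor genes, with a 12-base word shared by many members in capitals.
Intergenic, chromosome 14, chr14:18428876-18429175: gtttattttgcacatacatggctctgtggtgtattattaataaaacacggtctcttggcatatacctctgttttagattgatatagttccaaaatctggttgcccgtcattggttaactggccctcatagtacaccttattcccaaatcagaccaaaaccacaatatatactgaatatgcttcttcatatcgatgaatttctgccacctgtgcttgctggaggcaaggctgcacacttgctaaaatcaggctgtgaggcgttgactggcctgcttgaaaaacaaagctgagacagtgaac
Colgalt2 intron, chr1:152414688-152414987: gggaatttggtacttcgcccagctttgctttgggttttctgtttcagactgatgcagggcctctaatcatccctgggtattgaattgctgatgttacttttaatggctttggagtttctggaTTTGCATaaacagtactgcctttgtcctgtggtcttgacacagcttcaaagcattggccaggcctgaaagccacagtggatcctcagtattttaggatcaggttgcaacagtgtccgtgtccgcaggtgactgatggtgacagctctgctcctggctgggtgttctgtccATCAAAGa
Intergenic, chromosome 5, chr5:126755190-126755489: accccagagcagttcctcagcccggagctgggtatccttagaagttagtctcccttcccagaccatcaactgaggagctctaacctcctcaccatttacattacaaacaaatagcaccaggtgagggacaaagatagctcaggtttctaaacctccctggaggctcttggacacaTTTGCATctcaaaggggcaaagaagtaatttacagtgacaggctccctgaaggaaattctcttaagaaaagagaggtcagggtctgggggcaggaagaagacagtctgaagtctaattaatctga
C7, chr15:5023635-5023934: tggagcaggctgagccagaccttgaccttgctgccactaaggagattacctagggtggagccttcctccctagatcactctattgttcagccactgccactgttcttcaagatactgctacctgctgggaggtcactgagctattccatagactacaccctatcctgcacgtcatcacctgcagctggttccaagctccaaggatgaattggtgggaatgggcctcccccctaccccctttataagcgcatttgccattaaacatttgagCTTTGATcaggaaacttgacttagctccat
Olfr641 and Olfr643, chr7:104034068-104034367: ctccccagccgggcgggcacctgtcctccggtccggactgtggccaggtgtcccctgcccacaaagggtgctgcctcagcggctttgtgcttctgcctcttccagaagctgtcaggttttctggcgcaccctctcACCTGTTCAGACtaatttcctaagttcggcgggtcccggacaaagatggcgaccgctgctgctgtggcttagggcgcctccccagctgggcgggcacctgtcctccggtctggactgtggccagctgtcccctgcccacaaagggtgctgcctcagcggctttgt

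In CPM of total counts, the median member was accessible at similar levels in both B6-background lines, somewhat less in D2 and least in D2-13B6. The median over members was 3.85, 3.82 and 3.89 CPM in the 3 B6 libraries, 4.10 and 4.09 in B6-13D2, 3.22, 2.97 and 3.46 in D2 and 1.58, 1.26 and 1.51 in D2-13B6. The D2-13B6 libraries were lowest and the groups did not overlap, as the rule required of each member. D2 was the lowest of the other 3 lines in 74.8% of members, against 49.5% of open regions. The D2 level depended on the scaling. The median log2 fold change of D2 over B6 in members was -0.20 with total counts and -0.07 with totals scaled by trimmed means. Over open regions it was -0.11 and 0.02. Members took 1.22% ± 0.00892 (SD, n = 3) of all counts in B6, 1.32% ± 0.00983 (n = 2) in B6-13D2, 1.04% ± 0.0731 (n = 3) in D2 and 0.470% ± 0.0220 (n = 3) in D2-13B6.

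**Figure D2:**
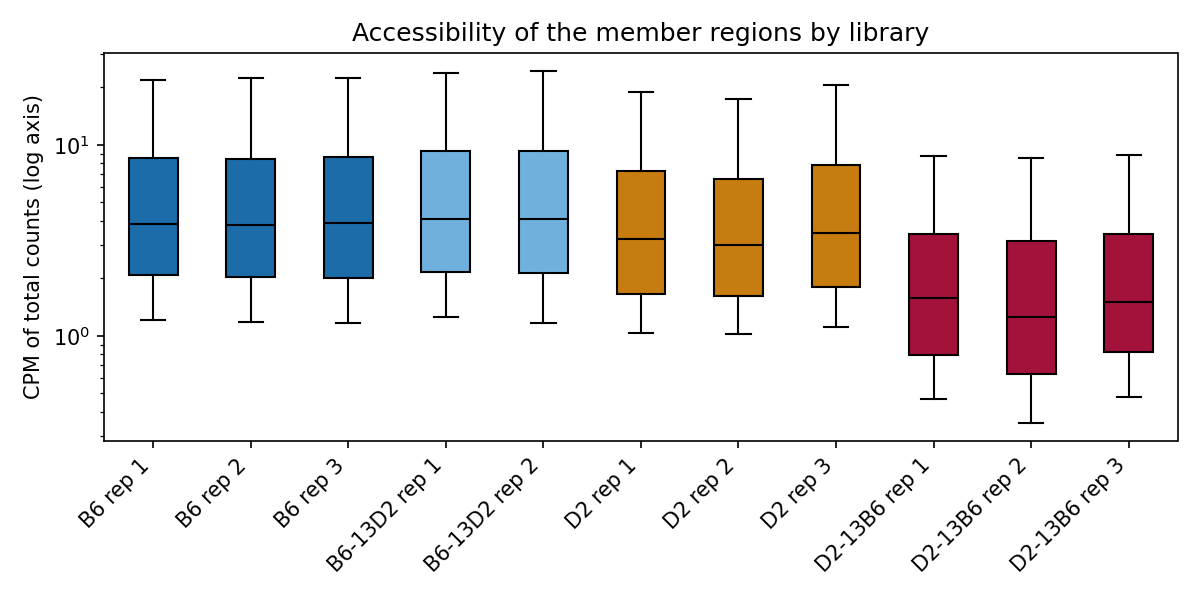
CPM of the 1775 members in each of the 11 libraries (log axis); boxes span the quartiles with the median as a line, and whiskers reach the 5th and 95th percentiles. Medians lie at 2.97 to 4.10 CPM in the other lines and at 1.26 to 1.58 in D2-13B6.

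How many regions met the rule depended strongly on the scaling. Library totals were 15198496 to 27293140 counts in B6, 18807653 to 20022534 in B6-13D2, 34945034 to 39770267 in D2 and 29172484 to 43042955 in D2-13B6. The mirrored rule, higher in D2-13B6 alone, was met by 8020 regions (3.76%), and these took 5.85% ± 0.611 (n = 3) of D2-13B6 counts against 1.39% ± 0.0872 (n = 3) in B6. With totals scaled by trimmed means (TMM), whose factors were 0.769 to 0.997 in D2-13B6 and 1.07 to 1.10 in B6, 357 regions met the rule and 14354 the mirrored one. With DESeq2 size factors 190 and 16619 did. All 357 and all 190 were among the 1775. Named regions and gene list counts use CPM of total counts throughout, and which of them met the rule under the other scalings is not given. With totals that leave out the 8020 regions, a choice made after the data were seen, 1206 regions met the rule, 1189 of them members. The same rule applied to each other line gave 74 regions lower in B6 alone, 224 in B6-13D2 alone and 37 in D2 alone.

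D2-13B6 replicate 2 was the lowest of its 3 libraries in 54.6% of members and in 47.7% of open regions. Leaving out one D2-13B6 library and choosing members from the other libraries gave 3000, 1385 and 5650 regions for replicates 1, 2 and 3. In these sets the left-out library, whose own counts had no part in the choice, had a median of 58.1%, 47.7% and 73.6% of the lowest line, beside 91.6%, 80.1% and 104.6% over open regions in the same library. The left-out library lay below all other 8 libraries in 87.0%, 98.0% and 62.2% of them, beside 39.9%, 51.7% and 27.5% of open regions. The lines it is set against were chosen to be high in these sets, so part of the gap to open regions is fixed by the choice.

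**Figure D3:**
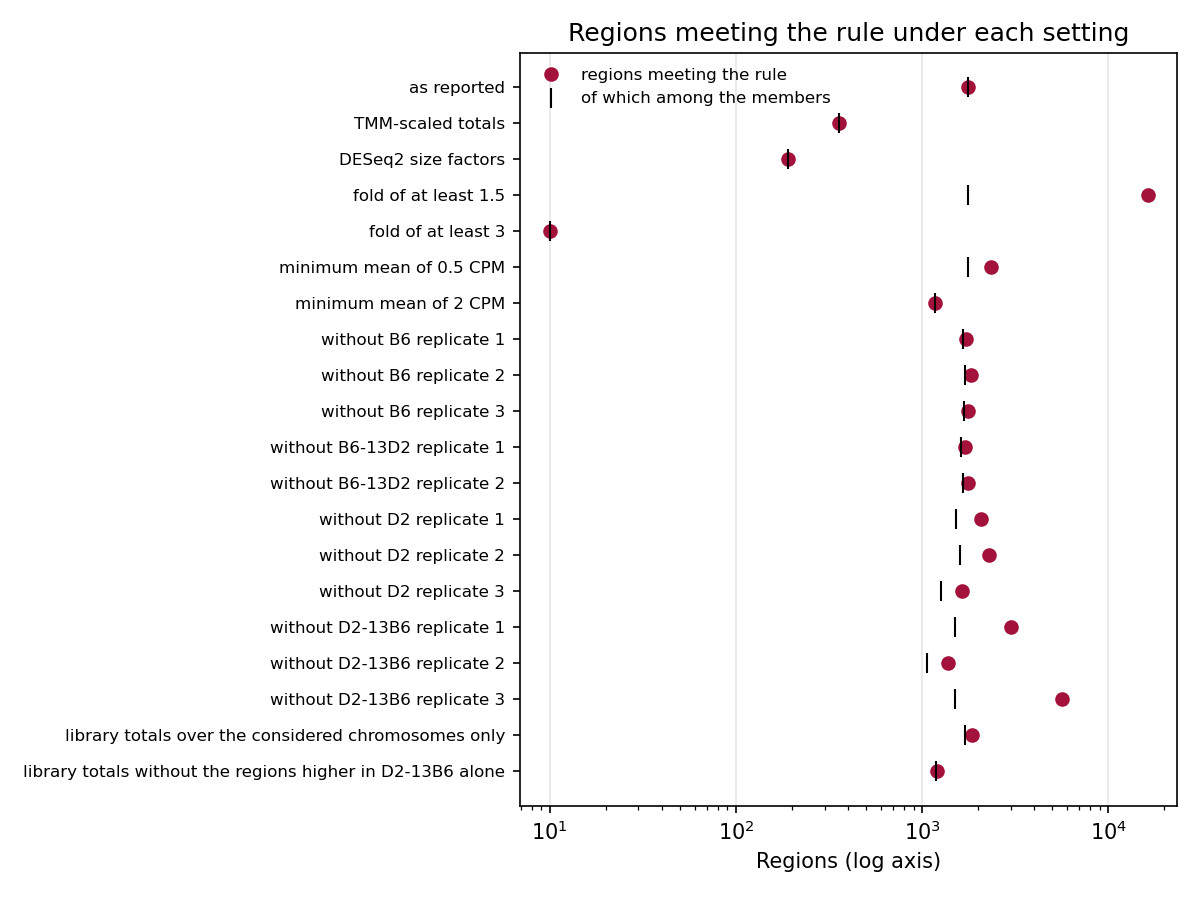
Number of regions that met the rule under each setting (red points, log axis) and how many of those were among the 1775 members (black bars). Counts run from 10 with a fold of at least 3 to 16251 with a fold of at least 1.5, and the scaling settings give 190 to 1853.

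The members lay away from start sites more often than open regions. Of the 1775, 192 (10.8%, exact 95% binomial interval 9.41% to 12.4%) were within 1000 bp of an annotated start site, against 19.8% of open regions and 6.21% of the mirrored set. Another 151 overlapped an exon, 621 lay in introns and 811 (45.7%) between genes, against 33.8% of open regions between genes. The median distance to the nearest start was 12660 bp, against 7660 bp. The median width was 807 bp (95% interval 778 to 838) against 719 bp for open regions by total counts. It was 736 bp for the 357 members by TMM and 675 bp for the 190 by DESeq2 size factors. Only the latter lay below the 719 bp. The median GC content of members was 47.4% against 49.0%. These intervals take members as independent regions and cover neither the choice of members nor the scaling.

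Repeats were a larger part of the members than of open regions. The median share of soft-masked bases, which the reference marks as repeats, was 27.4% (95% interval 26.1% to 28.7%) in members, 14.4% in open regions and 8.71% in the mirrored set. More than 50% was masked in 462 members (26.0%), against 10.6% of open regions. Members made up 3.06% of open regions that were over 50% masked and 0.764% of those under 20% masked. The open regions over 50% masked were also lower in D2-13B6 in general, with a median of 81.0% against 96.6% for those under 20% masked. With TMM-scaled totals the 357 members were 31.7% over 50% masked.

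Some of these members were copies of related sequence. The 12-base word ACCTGTTCAGAC, or its reverse complement GTCTGAACAGGT, stood in the central 300 bases of 79 members (4.45%) and 662 open regions (0.466%). It was picked after its counts in members were seen, so its share there is a description. The 79 lay on 17 chromosomes, 75 were more than 50% masked, 58 were intergenic and 19 intronic. Their median in B6 was 2.16 CPM, beside 2.17 in B6-13D2, 1.82 in D2 and 0.737 in D2-13B6. Of the 662 open regions with the word, 85.0% were lower in D2-13B6 than in the lowest other line, with a median of 68.2%. Reads from near-identical copies can map to several places, and how they were assigned is not given in the sources used here.

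The copy printed above, at chr7:104033724-104034711, was 89.9% masked and lay 734 bp from the start of Olfr641, overlapping Olfr643, both olfactory receptor genes. Its CPM was 2.97, 3.68 and 3.56 in B6, 3.75 and 2.87 in B6-13D2, 2.69, 2.704 and 3.18 in D2 and 1.25, 1.02 and 0.788 in D2-13B6. All D2-13B6 values were below all others.

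Short words known from transcription factor motifs were counted on both strands of the central 300 bases, for 27 words in all. TCF and LEF (ATCAAAG) had the largest ratio of shares, with a match in 10.6% of members and 4.91% of open regions. It was 11.98% against 4.70% where less than 20% was masked and 9.74% against 4.22% where over 50% was. The OCT4 word TTTGCAT stood in 8.90% of members against 6.34%, or 10.1% against 5.89% in the little-masked ones. The SOX word CATTGTT stood in 6.31% against 5.02%, or 7.99% against 5.04% in the little-masked ones. Neither was more frequent in members where over 50% was masked, at 8.23% against 8.49% for OCT4 and 4.11% against 4.15% for SOX. The SOX order depended on the scaling: among the 357 members by TMM 2.80% held the word, and among the 190 by size factors 3.16%, below open regions, while TCF and LEF stood at 11.2% and 12.6%. The HNF4 word CAAAGTC was in 6.82% against 4.68%, and the ESRRB and NR5A2 word AAGGTCA in 9.07% against 7.58%. The KLF word GGGTGTG was less frequent in members, at 11.15% against 12.01%, as was the STAT word TTCNGAA, at 6.48% against 7.22%. In the little-masked ones that order was reversed, with KLF at 11.98% against 11.35% and STAT at 9.91% against 7.46%. A match describes letters and does not show binding.

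Some words were most frequent in the masked members. ACCNGTT, of grainyhead-like (GRHL) factors, was in 16.2% of members against 8.41%, and in 29.4% against 11.98% of the over 50% masked ones. The shared repeat word contains these letters. AAGATGG, of YY1, was in 9.69% against 6.28%, and in 22.9% against 11.3% of the over 50% masked ones. CCGGAAG, of ETS factors, was in 4.79% against 3.28%, with 10.6% against 2.46% in the over 50% masked ones. In the little-masked ones the order of these last words was reversed, at 4.29% against 5.50% for YY1 and 2.51% against 3.69% for ETS.

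Words of several other factors were less frequent in members. AGGGGGC, of the insulator protein CTCF, was in 4.17% against 7.36%, and TGACGTC, the cAMP response element, in 0.507% against 1.13%. TGANTCA, of AP-1, was in 6.48% against 13.7%, and in 60.8% of the mirrored set. Over all open regions, sorted by the D2-13B6 percentage, the TCF and LEF share ran from 10.9% below 45% to 3.97% at 200% and above, while AP-1 ran from 6.31% to 49.8%. The mean masked share fell over the same bins from 38.8% to 13.1%.

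**Figure D4:**
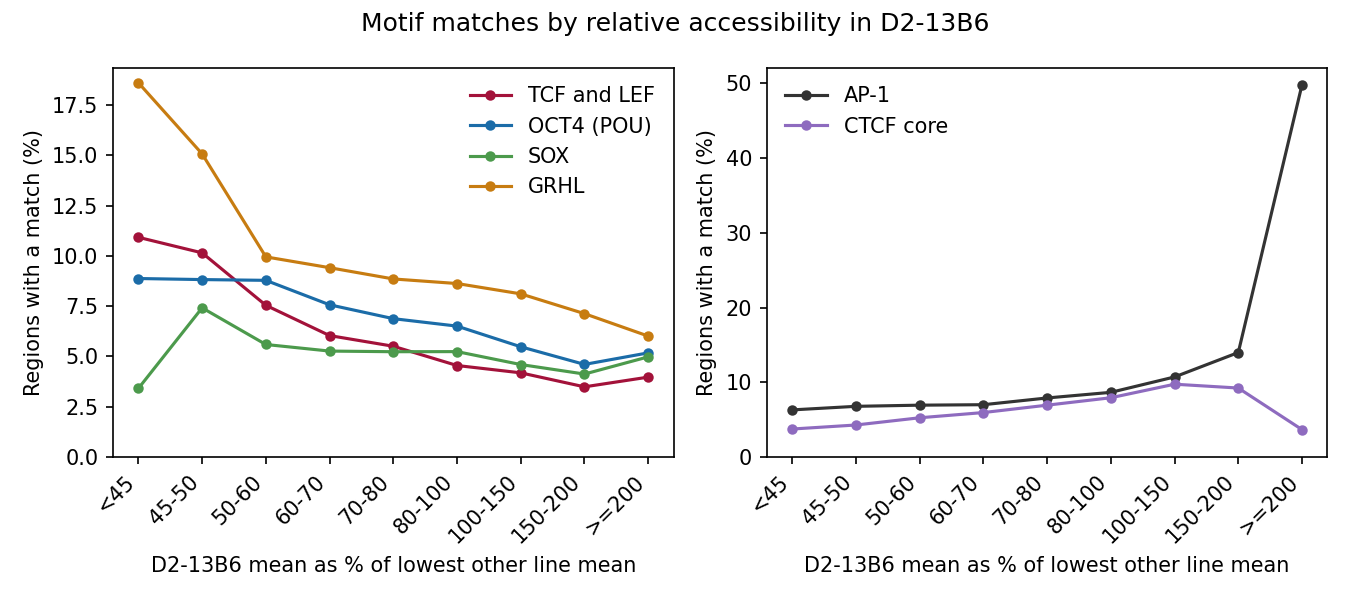
Share of open regions with a match in the central 300 bases, by the D2-13B6 mean as a percentage of the lowest other line mean; both panels share the x axis and differ in y scale. TCF and LEF and GRHL matches were most frequent in the lowest bin, and AP-1 matches in the highest (49.8%).

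The widest gaps among members of at least 5 CPM lay outside start sites. Between genes, chr14:18428160-18429890 had CPM values of 7.07, 6.84 and 7.78 in B6, 7.89 and 8.45 in B6-13D2, 7.39, 7.71 and 10.4 in D2 and 2.39, 1.79 and 1.99 in D2-13B6, the lowest D2-13B6 share of the 4 named at 28.5%. Its nearest protein-coding start, 96301 bp away, is that of Ube2e1, a ubiquitin-conjugating enzyme. In the intron of Colgalt2, a collagen galactosyltransferase, chr1:152414210-152415465 had CPM values of 6.23, 6.12 and 7.08 in B6, 6.99 and 8.88 in B6-13D2, 6.71, 5.73 and 5.98 in D2 and 1.81, 1.61 and 2.297 in D2-13B6, or 31.02%. The sequence printed above has both an OCT4 and a TCF and LEF match.

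The intergenic region chr5:126754768-126755911 had CPM values of 13.8, 15.1 and 14.4 in B6, 14.8 and 12.7 in B6-13D2, 9.83, 10.03 and 10.8 in D2 and 4.14, 3.75 and 4.08 in D2-13B6. At C7, a complement component, chr15:5022679-5024890 overlapped a coding exon and had CPM values of 9.34, 9.28 and 9.09 in B6, 17.2 and 17.01 in B6-13D2, 10.8, 10.1 and 13.9 in D2 and 3.16, 2.59 and 3.805 in D2-13B6. This last region was also higher in B6-13D2 than in B6 by 0.89 ± 0.19 (SE) on the log2 scale, with an adjusted p of 0.00442 by edgeR.

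Within 1000 bp of a start site, ranked by the same gap but with no minimum of 5 CPM, came Pot1a, Ninl and Diexf besides the Olfr641 region. The Pot1a promoter, chr6:25800069-25801982, of a telomere-binding protein, had CPM values of 17.4, 19.9 and 19.4 in B6, 19.98 and 21.1 in B6-13D2, 13.02, 13.4 and 17.9 in D2 and 6.11, 5.36 and 5.24 in D2-13B6. The Ninl promoter, chr2:150971260-150973735, of a centrosomal protein, had CPM values of 16.2, 16.6 and 15.5 in B6, 18.2 and 19.2 in B6-13D2, 17.7, 15.9 and 17.5 in D2 and 6.34, 7.38 and 7.44 in D2-13B6. The Diexf region, chr1:193124292-193124990, lay 484 bp from the start and had CPM values of 5.86, 4.803 and 5.201 in B6, 7.74 and 6.06 in B6-13D2, 4.68, 4.87 and 5.38 in D2 and 2.04, 2.26 and 1.89 in D2-13B6. In each, all D2-13B6 libraries lay below all others.

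**Figure D5:**
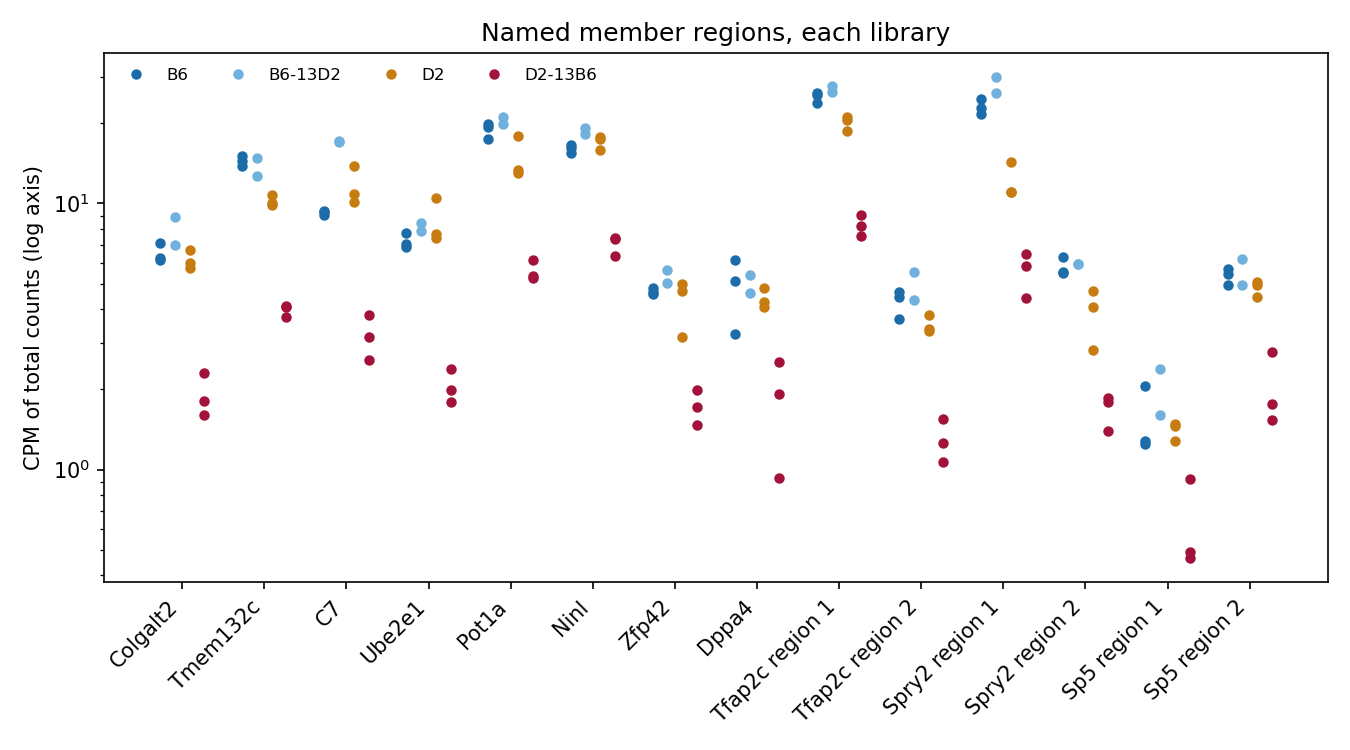
CPM of 14 member regions in each library (log axis), named by the protein-coding gene whose start is nearest. Every point is 1 library. The Tmem132c region, on chromosome 5, lies 485897 bp from that start. Regions 1 and 2 are those starting at 172576072 and 172594193 for Tfap2c, 105857808 and 105900461 for Spry2, and 70443096 and 70484205 for Sp5. In every region the 3 D2-13B6 points are the lowest.

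Genes of the pluripotency network had 6 members of 361 open regions (1.66%, against 1.07% over all genes), at Dppa4, Esrrb, Klf4 and Zfp42. A region was given to the protein-coding gene with the nearest start within 100000 bp. In an exon of Zfp42, a marker of naive stem cells also called Rex1, chr8:43295468-43296345 had CPM values of 4.58, 4.803 and 4.64 in B6, 5.04 and 5.64 in B6-13D2, 4.702, 3.14 and 4.98 in D2 and 1.998, 1.47 and 1.71 in D2-13B6. In an intron of Dppa4, an early developmental chromatin factor, chr16:48285104-48286024 had CPM values of 5.13, 6.12 and 3.23 in B6, 4.59 and 5.37 in B6-13D2, 4.099, 4.27 and 4.81 in D2 and 1.93, 0.932 and 2.54 in D2-13B6, and B6 replicate 3 was closest to D2-13B6. The list as a whole was lower in D2-13B6 too, with a median of 70.9% over its open regions against 91.9% over all genes. Of its open regions 89.2% were below the lowest other line. Most other gene lists were below all genes as well, such as germline (79.5%), neural progenitor (81.0%) and formative and primed (81.4%). Only the TGF-beta and BMP (95.2%), Hox (100.3%) and fibroblast (128.1%) lists were above.

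Marker promoters moved with this, and their part in the result was not tested. Summed over the promoters of the 24 pluripotency genes, CPM ran from 1122 to 1152 in B6, 1133 to 1144 in B6-13D2, 971 to 1030 in D2 and 710 to 742 in D2-13B6. All 24 had a promoter region and none was at 0 over all 11 libraries together. The sums show the markers of the labelled cell type accessible as a list in all 4 lines. Single genes were not checked line by line. Summed over 14 of 17 fibroblast marker genes with a promoter region, CPM was 204 to 211 in B6, 196 to 203 in B6-13D2, 252 to 256 in D2 and 321 to 371 in D2-13B6. The fibroblast list's open regions had a median of 128.1%, and 3 of 126 were members, at Fn1 and Lum. Promoter sums of some other lists were also lower in D2-13B6 than in B6. They were 167 to 186 against 232 to 245 CPM for neural progenitor genes and 302 to 332 against 405 to 423 for formative and primed genes. Others were higher than in B6, such as FGF and MAPK genes at 1032 to 1181 against 821 to 882. D2 was at 998 to 1092 for that list, overlapping D2-13B6. For neural progenitor genes D2 was at 196 to 236, and for formative and primed genes at 375 to 413.

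Signalling lists had 1.30% to 1.92% of their open regions among the members, beside 1.07% over all genes. The WNT list had 6 of 462 open regions, at Cdx1, Lgr4 and Sp5, and the FGF and MAPK list 6 of 387 (1.55%), at Etv5, Spred1 and Spry2. The LIF and STAT3 list had 3 of 156, at Gbx2, Klf4 and Lifr, and the TGF-beta and BMP list 7 of 433 (1.62%), at Bmp4, Bmp5, Bmpr1b, Chrd and Tgfbr3. For Sp5, a direct WNT target, chr2:70484205-70485432 had CPM values of 4.95, 5.66 and 5.44 in B6, 6.19 and 4.94 in B6-13D2, 4.45, 5.08 and 4.92 in D2 and 1.77, 1.54 and 2.78 in D2-13B6. The second Sp5 member, at chr2:70443096-70443348, was weak, with CPM values of 1.28, 1.25 and 2.06 in B6, 1.598 and 2.39 in B6-13D2, 1.28, 1.46 and 1.49 in D2 and 0.465, 0.489 and 0.926 in D2-13B6.

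For Spry2, a feedback inhibitor of FGF signalling, chr14:105857808-105861509 had CPM values of 24.8, 21.7 and 22.8 in B6, 29.9 and 26.00 in B6-13D2, 11.01, 11.1 and 14.3 in D2 and 6.44, 4.402 and 5.83 in D2-13B6, with D2 between the B6 lines and D2-13B6. The region lay 35310 bp from the Spry2 start and 992 bp from the start of Gm48970, a long noncoding RNA gene that it overlapped. D2 was called lower than B6 there, at -0.81 ± 0.17 (SE) on the log2 scale and an adjusted p of 0.000143 by edgeR. The nearer region, chr14:105900461-105901622, 3642 bp from the start, had CPM values of 5.53, 5.46 and 6.28 in B6, 5.94 and 5.902 in B6-13D2, 4.68, 2.81 and 4.09 in D2 and 1.79, 1.398 and 1.85 in D2-13B6. Near Lifr, the LIF receptor, chr15:7079320-7082669 had CPM values of 21.7, 19.2 and 22.1 in B6, 22.7 and 21.9 in B6-13D2, 17.1, 17.5 and 18.1 in D2 and 9.32, 7.197 and 9.32 in D2-13B6.

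Lists of other cell states are set beside the share of 1.07% over all genes, and most are too small to tell their counts from it. There was 1 member each for the formative and primed (Fgf5, of 170 open regions, 0.588%) and primitive endoderm lists (Gata6, of 148, 0.676%). The primitive streak and mesoderm list also had 1 (Gsc, of 95, 1.05%). There was none for the neural progenitor (104 open regions), germline (80), two-cell (29) and Hox lists (91). The trophectoderm list had 4 of 103 (3.88%), at Elf5 and Tfap2c. For Tfap2c, which encodes the factor TFAP2C, chr2:172576072-172578372 had CPM values of 23.9, 26.1 and 25.7 in B6, 26.2 and 27.7 in B6-13D2, 20.6, 21.1 and 18.7 in D2 and 7.57, 8.25 and 9.08 in D2-13B6. The farther one, chr2:172594193-172594937, had 4.43, 3.68 and 4.64 in B6, 4.35 and 5.53 in B6-13D2, 3.32, 3.81 and 3.38 in D2 and 1.25, 1.07 and 1.54 in D2-13B6.

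Chromatin regulator lists included 8 members of 227 open regions (3.52%) for heterochromatin and DNA methylation, at Morc3, Setdb1, Setdb2, Tet2 and Tet3. Over all genes the share was 1.07%. At Morc3, a chromatin ATPase, chr16:93848712-93849785 had CPM values of 7.22, 6.58 and 7.497 in B6, 8.84 and 7.55 in B6-13D2, 6.11, 7.11 and 6.72 in D2 and 2.76, 2.52 and 3.19 in D2-13B6. Near Tet2, a methylcytosine dioxygenase, chr3:133549597-133550412 had CPM values of 2.93, 2.698 and 3.05 in B6, 2.85 and 3.62 in B6-13D2, 3.77, 2.76 and 3.23 in D2 and 1.301, 1.02 and 1.44 in D2-13B6. The polycomb list had 3 of 229 (1.31%), at Eed, Pcgf6 and Rnf2, and the imprinted list 4 of 322 (1.24%), at Gpr1, Plagl1, Usp29 and Zdbf2. The Rnf2 promoter, chr1:151471018-151472114, of the polycomb ubiquitin ligase, had CPM values of 6.34, 5.46 and 5.48 in B6, 6.99 and 6.17 in B6-13D2, 4.02, 4.25 and 5.87 in D2 and 1.95, 1.51 and 1.82 in D2-13B6.

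Most members stood alone. By chromosome they made up 0.771% (chromosome 15) to 1.71% (chromosome 1) of open regions. There were 1656 single members, 53 pairs, 3 runs of 3 and 1 run of 4 among regions consecutive in the table. The run of 4 lay at Gm14406 (chr2:177574704-177584222) and one run of 3 at Gm14444 (chr2:175003903-175014255), both predicted protein-coding genes. Members lay at like distances from their starts, 4999, 2459, 919 and 0 bp for Gm14406 and 5002, 2356 and 0 bp for Gm14444, and how reads shared between alike genes were assigned is not given in the sources used here. At the start of Gm14406, chr2:177577824-177578692 had CPM values of 3.55, 4.54 and 5.44 in B6, 4.15 and 4.94 in B6-13D2, 4.88, 4.03 and 4.03 in D2 and 1.49, 2.26 and 1.51 in D2-13B6. Egln3 and Etl4 had the most members by gene, with 5 each, and 6 genes had 4. The nearest other region within 10000 bp of a member was lower in D2-13B6 for 75.2% of 1322 members with one, with a median of 76.0%, against 58.9% and 91.1% of open regions.

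The rule set no contrast among the other 3 lines, but it required each of them to be high and at least 2 times D2-13B6, a line of D2 background, so the shares called below are shaped by that choice and are given as counts beside the background. All 1775 members were tested by edgeR's quasi-likelihood test with Benjamini-Hochberg adjustment over 246840 regions. Against B6, D2 was lower in 150 members (8.45%) where 8.8% of all tested regions were called lower, and higher in 10 (0.563%) where 13.7% were called higher. The median log2 fold change over members was -0.07, against 0.02 over open regions. Without D2 replicate 2, whose member median was the lowest of D2, the counts were 71 lower and 48 higher and the median turned to 0.03, against 0.08 over open regions. With total counts in place of TMM the counts were 293 lower and 3 higher. Total counts also raised the calls over all regions, in both directions together, from 55588 to 60417. They moved the median over all regions from -0.01 to -0.14 on the log2 scale. The background share called lower with total counts is not given. Of the 462 members over 50% masked 33 were lower in D2 (7.14%), and of the 676 under 20% masked 60 (8.88%). Shares over all regions of like masking were not computed.

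The strongest D2 calls lay on chromosome 12. The intergenic region chr12:21767442-21769056 had CPM values of 11.4, 9.74 and 9.56 in B6, 9.29 and 8.08 in B6-13D2, 1.48, 1.51 and 0.973 in D2 and 0.511, 0.792 and 0.651 in D2-13B6, and D2 over B6 was -2.82 ± 0.21 (SE) on the log2 scale, with an adjusted p of 2.99e-17 by edgeR. An intron of Gm40847, chr12:18863473-18864361, had CPM values of 4.69, 7.43 and 6.93 in B6, 4.095 and 6.06 in B6-13D2, 1.26, 1.298 and 1.202 in D2 and 0.279, 0.559 and 0.754 in D2-13B6 and a D2 over B6 value of -2.20 ± 0.24, with an adjusted p of 5.26e-11 by edgeR. In both, the D2 values were far below B6 and the D2-13B6 values lower still. Higher in D2 was an intron of Stat4, a signal transducer of interleukin 12, chr1:52046676-52047394, with CPM values of 5.31, 7.17 and 6.19 in B6, 8.14 and 7.92 in B6-13D2, 15.04, 10.3 and 12.4 in D2 and 2.74, 3.12 and 3.09 in D2-13B6 and a D2 over B6 value of 1.16 ± 0.18, with an adjusted p of 9.23e-07 by edgeR. Hydin, of motile cilia, was next at 0.51 ± 0.16, with an adjusted p of 0.0151 by edgeR, a call lost when any one B6 library or D2 replicate 1 was left out.

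Against B6, B6-13D2 was higher in 8 members (0.451%, background 0.139%) and lower in 0 (background 0.335%) by edgeR. At an unadjusted edgeR p under 0.05, 139 members differed in either direction, and the share of all regions at that limit was not computed. DESeq2 called 9 members higher and 0 lower, among 987 regions it called in all. The median log2 fold change was 0.08, against -0.01 over open regions. A processed pseudogene start, chr12:88339654-88342221, had CPM values of 8.32, 6.05 and 8.76 in B6, 19.3 and 19.8 in B6-13D2, 9.203, 8.73 and 9.56 in D2 and 3.25, 2.91 and 3.77 in D2-13B6, with B6-13D2 over B6 at 1.33 ± 0.19 (SE) on the log2 scale and an adjusted p of 2.04e-06 by edgeR. An intergenic region, chr19:61311847-61314063, had CPM values of 11.2, 11.8 and 12.3 in B6, 22.2 and 26.6 in B6-13D2, 7.02, 8.44 and 6.07 in D2 and 2.63, 2.59 and 2.43 in D2-13B6, with 1.06 ± 0.19 and an adjusted p of 0.000232 by edgeR. The count of 8 was 13 with total counts, 1 and 4 without B6-13D2 replicates 2 and 1, 4 without B6 replicate 3, and 16 and 14 without D2-13B6 replicates 2 and 3.

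Against B6-13D2, D2 was lower in 188 members (10.6%, background 7.24%) and higher in 1 (0.0563%, background 11.6%), with a median log2 fold change of -0.17 against 0.03 over open regions. These comparisons share libraries: each line enters 2 of the 3. With total counts 373 members were lower, and the calls over all regions, in both directions together, rose from 46459 to 51057. Without D2 replicate 2 the counts were 106 lower and 4 higher and the median was -0.05, and without B6-13D2 replicate 1 or 2 they were 89 and 83 lower.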

How the data were processed

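ATAC-seq counts per region were deposited as 1 table for 11 libraries. The authors' steps are known only from the submitters' processing notes, which name Trimmomatic 0.39, BWA 0.7.5, Picard 2.0.1, MACS 1.4.2, bedtools 2.9.2, edgeR 3.34.1 and the build mm10. How reads mapping to several places were treated is not given in the sources used here, nor is whether region starts count from 0 or 1, and they are printed as deposited. Pandas 2.3.3 under Python 3.11.15 gave CPM by column sum. The test was the edgeR 4.0.16 quasi-likelihood fit (R 4.3.3, TMM, filterByExpr, robust) with 1 coefficient per line over all 11 libraries and Benjamini-Hochberg adjustment at 0.05, tested on simulated data. Alternatives were other scalings and filters, DESeq2 1.42.0, each library left out and the replicate number as a term. Contrasts with D2-13B6 have no test, since they chose the members. Regions were annotated with GENCODE M21 on GRCm38 and sequences read from that reference, whose chromosome ends no region passes. Named members had the widest gap between D2-13B6 and the other libraries overall and near start sites, the longest runs, the largest folds in each of 17 gene lists, the smallest p-values, or lay nearest the limit. Members and lists were chosen with earlier results of these data known. Libraries hold 15198496 to 43042955 counts. Intervals take members as independent regions and cover neither the choice of members nor the scaling. Reads without molecular identifiers are not independent molecules.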

Additional observations from a re-analysis of the deposited data

How the results depend on the processing

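The number of members moved most with the scaling and the fold: 357 with TMM-scaled totals, 190 with DESeq2 size factors, 16251 at a fold of at least 1.5, 10 at a fold of at least 3 and 1177 at a minimum mean of 2 CPM. Leaving out 1 library gave 1385 to 5650. With totals over the considered chromosomes only, an alternative chosen after seeing the data, it was 1853. With TMM-scaled members, 31.7% were over 50% masked, the median width was 736 bp and the median masked share 29.4%. A start site window of 2000 bp gave 14.9% of members near a start.

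Members called for D2 against B6 were 3 higher and 293 lower with total counts, which move the median over all regions to -0.14 on the log2 scale, and 6 higher with DESeq2. Leaving out each library gave 2 to 48 higher and 71 to 194 lower. The higher count was 2 without B6 or D2 replicate 1, 4 without B6 replicate 2 or D2 replicate 3 and 19 without D2-13B6 replicate 2, and the lower count 93 without B6 replicate 3 and 71 without D2 replicate 2. For B6-13D2 against B6, total counts gave 13 higher, and leaving out each library 1 to 16 higher and 0 to 0 lower. For D2 against B6-13D2, total counts gave 373 lower, and leaving out each library 0 to 4 higher and 83 to 249 lower. Where this left B6-13D2 with 1 library, that library is assumed to vary like the other groups. The second B6-13D2 call, on chromosome 19, missed the threshold without B6-13D2 replicate 2.

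With replicate number as a block, the counts were 13 higher and 157 lower for D2 against B6, 10 and 0 for B6-13D2 against B6, and 1 and 201 for D2 against B6-13D2. The numbers do not pair the libraries: deviations of same-numbered libraries correlated at -0.05 to 0.07 over 15 pairs.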
